A study of Mus musculus with 18 samples.

Results

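The genes of the 3 superfamilies of conjugating enzymes, the glutathione S-transferases (GST), the UDP-glucuronosyltransferases (UGT) and the sulfotransferases (SULT), were followed in liver, epididymal white adipose tissue (eWAT) and quadriceps muscle of mice on a control diet (CON) or a high-salt diet (HSD). Members were chosen by gene symbol alone: Gsta, Gstk, Gstm, Gsto, Gstp, Gstt or Gstz with a number, Mgst with a number, Ugt1a, Ugt2a, Ugt2b or Ugt3a, and Sult with a number. This gave 68 of the 21899 genes listed, of which 26 were GST, 21 UGT and 21 SULT genes. All mice were wild-type male C57BL/6 mice of 18 weeks. The HSD group had been fed a high-salt diet with saline to drink for 12 weeks, and the CON group chow and tap water. Each combination of tissue and diet held 3 libraries, each from another mouse, so that 18 libraries from 8 mice were compared. Of these mice, 4 gave all 3 tissues, 2 gave eWAT and muscle and 2 gave liver only. Replicates are numbered 1 to 3 within a group, and values are given in that order. The quality table of the study lists 15 of the 18 libraries, without CON liver replicate 2, HSD liver replicate 3 and HSD eWAT replicate 3, and gives no reason. Diet comparisons in liver and eWAT are therefore given over all libraries and over the listed ones.

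Conjugating enzymes attach a water-soluble group to a drug, hormone, bilirubin or product of lipid oxidation, so that the conjugate can leave the cell and the body. GSTs use glutathione, and the microsomal MGST proteins are membrane enzymes with the same donor. UGTs sit in the endoplasmic reticulum and transfer the glucuronic acid of UDP-glucuronate, while SULTs are cytosolic and take sulfate from the donor PAPS. The liver is known as the main site of all 3 reactions, several of these genes are induced by the electrophile sensor NRF2 or by the receptors AHR, CAR and PXR, and hepatocytes carry a characteristic set of UGT2B, SULT1 and SULT2A enzymes.

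Libraries held 7628071 to 16637489 fragments assigned to genes, with a median of 12352169. Expression is given as FPKM, that is, fragments scaled to gene length and to the total of the library, which can be compared between genes. The share of fragments from mitochondrially encoded genes was 3.52% to 5.11% in eWAT and 11.3% to 16.5% in muscle. In liver it varied from 15.4% in HSD replicate 2 to 60.8% in CON replicate 1. FPKM are shares of a total that includes these genes. The 8 hepatocyte markers summed to at least 12167 FPKM in every liver library, the 8 adipocyte markers to at least 7194 in every eWAT library and the 8 skeletal muscle markers to at least 58857 in every muscle library. Libraries nevertheless held transcripts of other tissues. HSD eWAT replicate 2 held 17364 FPKM of 10 epididymal markers, against at most 9.87 in the other eWAT libraries, and CON liver replicate 2 held 4148 FPKM of skeletal muscle markers, against at most 6.49 in the other liver libraries. In these bulk samples, fewer cells of a type and less RNA per cell cannot be told apart.

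Of the 68 members, 57 were above 0 in at least 1 library, and 11 were listed at 0 in all 18. These 11 were Sult2a1, Sult2a2, Sult2a3, Sult2a4, Sult2a6, Sult3a1, Sult3a2, Ugt1a2, Ugt1a10, Ugt2a1 and Ugt2a2. Of their 100-base stretches, Ugt2a1 and Ugt2a2 share 94.9% and 93.5% with other genes, mostly with each other. Ugt1a2 and Ugt1a10 share 62.9% and 52.3%. For such genes a listed 0 need not mean that the transcript was absent. With a mean of at least 1 FPKM over the 6 libraries of a tissue, 38 members were present in liver, 29 in eWAT and 16 in muscle. GSTs made up most of what was found outside the liver. Of the 26 GST genes, 21 reached this level in liver, 22 in eWAT and 15 in muscle, whereas UGT genes did so in 12, 2 and 0 cases and SULT genes in 5, 5 and 1. A filter at a mean of 0.5 FPKM in the fitted libraries left 41 members to test for diet in liver, 35 in eWAT and 17 in muscle.

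**Figure D1:**
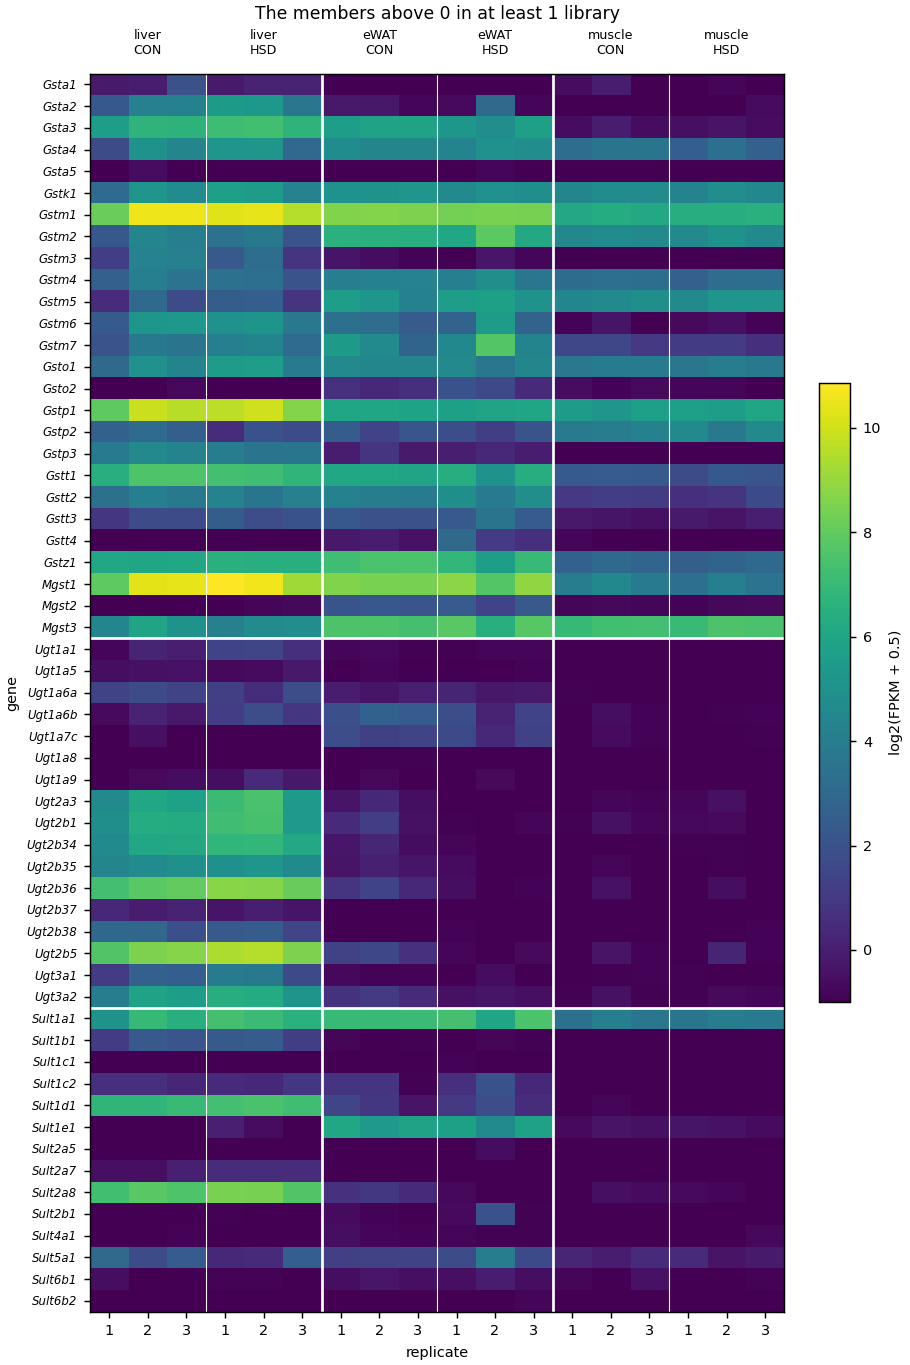
Level of the 57 members above 0 in at least 1 library, as log2(FPKM + 0.5), with genes in rows by superfamily and the 18 libraries in columns by group and replicate. UGT2 genes, Sult2a8 and Sult1d1 are bright in liver, Sult1e1 and Mgst2 in eWAT, and HSD eWAT replicate 2 differs from its group in Gstm2, Gstm6 and Gstm7.

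Summed over all members, GST transcripts were the most abundant of the 3 superfamilies in each tissue. The GST sum was 1071, 4528 and 4295 FPKM in CON liver, 1628, 1595 and 1471 in CON eWAT and 382, 437 and 440.3 in CON muscle. The UGT sum was 482, 902 and 969 FPKM in CON liver but only 12.9, 18.3 and 11.3 in CON eWAT and 0.0712, 1.47 and 0.302 in CON muscle. The SULT sum was below the UGT sum in every CON liver library and above it in every CON eWAT and muscle library, with 306, 463 and 417 FPKM in CON liver, 204, 176 and 193 in CON eWAT and 10.8, 17.5 and 13.7 in CON muscle. The 3 tissues did not overlap in the UGT or SULT sum, while the GST sum of CON liver replicate 1, the library with the highest mitochondrial share, lay below that of all CON eWAT libraries.

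**Figure D2:**
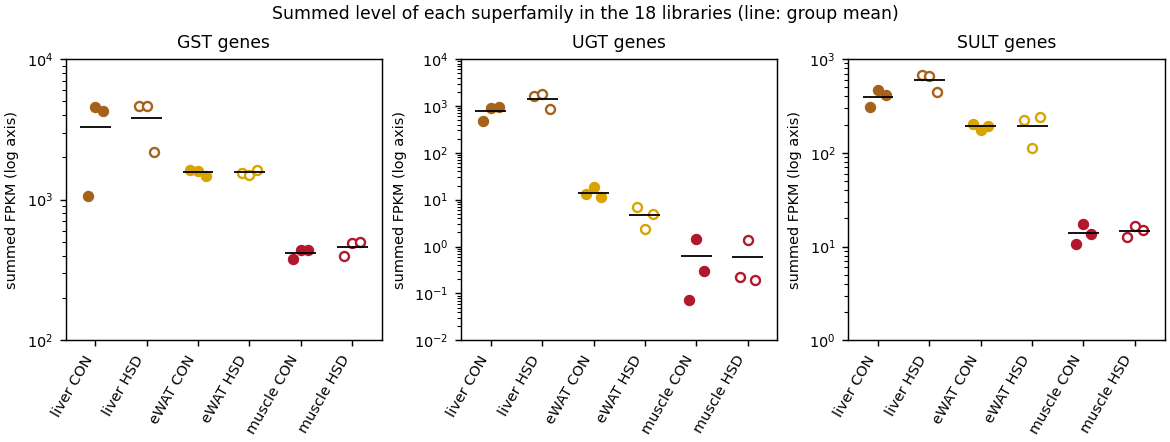
Summed FPKM of the 26 GST, 21 UGT and 21 SULT genes in each of the 18 libraries, with log vertical axes; filled points are CON, open points HSD, and lines are group means. UGT transcripts lie at 482 to 1761 FPKM in liver, at most 18.3 in eWAT and at most 1.47 in muscle.

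A few genes carried most of each sum. In liver, Mgst1, Gstm1 and Gstp1 made up 83.6% of the GST sum. Mgst1, a microsomal transferase that also reduces lipid peroxides, was at 239, 1339.8 and 1386 FPKM in CON liver and 1852, 1533 and 571 in HSD liver. Gstm1, a cytosolic mu-class enzyme, was at 291, 1510.3 and 1522 FPKM in CON and 1247, 1374 and 743 in HSD liver. Gstp1, the pi-class enzyme, was at 241, 973 and 764 FPKM in CON and 820.0, 1018 and 409 in HSD liver. Within each diet 1 library was far below the other two for all 3 genes, CON replicate 1 and HSD replicate 3, which are also the libraries with the highest mitochondrial shares of their groups, 60.8% and 44.4%. Gstp1 shares 25.1% of its 100-base stretches with other genes, mostly its neighbour Gstp2, and Gstp2 shares 46.9% of its own, so the split of fragments between the pair is uncertain.

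In eWAT the order of the GST genes was different. Mgst1 was at 392, 351 and 344 FPKM in CON eWAT, and Gstm1 at 394, 405 and 369. They were followed by Mgst3, a microsomal transferase with glutathione peroxidase activity, at 188, 185 and 165, against 20.4, 59.8 and 32.6 in CON liver. In muscle, Mgst3 was the leading GST gene with 34.7% of the sum. It was at 123, 152 and 156 FPKM in CON and 127, 184 and 176 in HSD muscle, ahead of Gstm1 at 71.2, 80.8 and 70.95 and Gstp1 at 46.4, 35.3 and 51.1 in CON muscle. Between the 6 muscle libraries Mgst3 stayed within 123 to 184 FPKM.

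As listed, the UGT sum of liver was mostly UGT2 genes. Ugt2b5, an enzyme of steroid and drug glucuronidation, was at 197, 361 and 419 FPKM in CON liver and 674, 746 and 371 in HSD liver. Ugt2b36 was at 158, 226 and 257 FPKM in CON and 424, 413 and 269.8 in HSD liver, and Ugt2b1 at 29.3, 79.7 and 77.4 and 147, 169.9 and 41.9. The 3 genes together held 76.6% of the UGT sum of liver. Ugt2b5 and Ugt2b38 share 24.7% and 24.2% of their 100-base stretches with other genes, mostly with each other.

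In eWAT, by contrast, UGT1A genes led. Ugt1a6b was at 3.19, 5.98 and 4.95 FPKM in CON eWAT, against 0.1101, 0.614 and 0.367 in CON liver. Ugt1a7c was at 2.96, 1.86 and 2.18 FPKM in CON eWAT, and in liver it had fragments in only 1 of the 6 libraries. The UGT1A genes use different first exons and share the rest of the transcript. Between 50.4% and 70.9% of the 100-base stretches of each UGT1A gene occur in other genes, so the level of a single one is uncertain. How shared fragments were counted is not stated. If they were left out, the UGT1A sum is too low, so its rank against the UGT2 genes is uncertain too. No UGT gene reached a mean of 0.5 FPKM in muscle, where the highest was Ugt2b5 at 0, 0.273 and 0.0481 FPKM in CON and 0, 0.663 and 0.0434 in HSD muscle, or at most 16 fragments.

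Different sulfotransferases led in liver and eWAT. Sult2a8 was the leading SULT gene of liver, at 152, 223 and 193 FPKM in CON and 349.8, 348 and 197 in HSD liver, followed by Sult1d1, a catecholamine sulfotransferase, at 108, 109 and 126 and 158, 176 and 150.1. Sult1a1, the phenol sulfotransferase, was the only member of the superfamily above 1 FPKM in all 18 libraries, at 33.9, 122 and 88.4 in CON liver, 129, 129.8 and 133 in CON eWAT and 9.86, 16.5 and 12.2 in CON muscle. Sult1e1, the estrogen sulfotransferase, was at 68.1, 40.2 and 56.5 FPKM in CON eWAT and at 0.122, 0.272 and 0.216 in CON muscle. It had no fragment in any CON liver library and 7, 2 and 0 fragments in HSD liver. Against a floor of 3 fragments per library, Sult1e1 was at least 209-fold higher in CON eWAT than in CON liver.

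To compare the tissues without the diet, the 9 CON libraries were fitted by limma in 1 model, and a call required a log2 difference of at least 1 in size and a p under 0.05 after Benjamini-Hochberg adjustment. Between CON liver and CON eWAT, 28 of the 42 members tested were called, against a background of 69.4% of all genes. Members were mostly higher in liver, while most called genes were lower there. Higher in liver were 20 members, against 7.26% of all genes, and lower were 8, against 62.1%. The median of all genes was -1.36 on the log2(FPKM + 0.5) scale, next to a mitochondrial share of 25.7% to 60.8% in CON liver and at most 4.34% in CON eWAT. With median-ratio scaling, which moved that median to 0.03, the split was 28 higher and 5 lower, against 21.2% and 20.7% of all genes. With quantile normalization it was 25 and 7, against 17.8% and 22.9%, and without the mitochondrially encoded genes 26 and 7, against 13.2% and 33.1%. All 12 UGT genes tested were called, 10 of them higher in liver and Ugt1a6b and Ugt1a7c lower. Of the 23 GST genes tested, 6 were higher and 5 lower in liver, and of the 7 SULT genes, 4 were higher and 1 lower.

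The largest differences in favour of liver were those of Ugt2b5 (log2 difference 7.08, SE 0.33), Ugt2b36 (6.88, SE 0.31), Sult2a8 (6.86, SE 0.20) and Sult1d1 (6.17, SE 0.39), with adjusted p by limma from 2.24e-08 to 6.93e-07. In favour of eWAT they were those of Sult1e1, whose fitted value of -6.76 rests on the pseudocount because liver was at 0, of Gstm5 (-3.24, SE 0.59), of Mgst2 and of Gstm2 (-2.94, SE 0.47). Mgst2, a microsomal transferase that can also make leukotriene C4, was at 3.71, 4.21 and 3.896 FPKM in CON eWAT and had no fragment in CON liver, so it was at least 44.6-fold higher in eWAT. Gstm5, a mu-class enzyme known from brain and testis, was at 0.923, 7.87 and 2.82 FPKM in CON liver and 47.4, 37.1 and 18.2 in CON eWAT. Its highest liver value was that of replicate 2, the library with skeletal muscle transcripts, and Gstm5 was at 21.4, 24.9 and 29.8 in CON muscle; the part of these transcripts in the liver value was not tested.

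Against CON muscle, 32 of 42 members were called in liver, 29 of them higher, with a background of 50.1% of all genes called, 15% higher and 35.1% lower. Ugt2b5 (log2 difference 9.03, SE 0.33), Ugt2b36 (8.52, SE 0.31), Sult2a8 (8.27, SE 0.20) and Sult1d1 (7.78, SE 0.39) again led. The 3 lower in liver were Gstm5 (-2.91, SE 0.59), Mgst3 (-2.05, SE 0.36) and Gstp2 (-1.26, SE 0.28), and the call of Gstp2 was lost under each of the 3 other scalings, under which its difference was -0.55 to -0.74. Between CON eWAT and CON muscle, 24 of 42 members were called, 23 of them higher in eWAT, with a background of 54.9% called, 46.9% higher and 7.98% lower. With median-ratio scaling 15 of 41 were higher and 1 lower, against 19.6% and 18.4% of all genes in that fit. The 4 largest were Sult1e1 (6.27, SE 0.19), Gsta3 (6.20, SE 0.30), Gstz1 (4.53, SE 0.19) and Mgst1 (4.35, SE 0.62). Gsta3, an alpha-class enzyme that conjugates aflatoxin epoxide in mice, was at 49.97, 57.3 and 57.2 FPKM in CON eWAT and 0.156, 0.466 and 0.165 in CON muscle. Gstz1, a step of tyrosine breakdown, was at 148, 180.1 and 178 and 5.92, 7.799 and 6.71. Gstp2 alone was lower in eWAT (-2.03, SE 0.28), at 5.16, 2.13 and 4.05 FPKM against 14.6, 16.01 and 17.8 in muscle.

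Many members lie next to each other. The UGT1A genes, 9 in all, occupy chr1:88055388-88220002 of build mm10, the 10 UGT2 genes and 3 SULT1 genes chr5:86889767-87591594, and the 7 mu-class GST genes chr3:107895821-108044894. Neighbours could differ in the tissue where they were highest. On chromosome 5, Sult1d1 (chr5:87554645-87569027) and Sult1e1 (chr5:87575969-87591594) are adjacent genes of the same strand. In CON liver they were at 108, 109 and 126 and at 0 FPKM, and in CON eWAT at 2.28, 1.395 and 0.269 and at 68.1, 40.2 and 56.5 FPKM. On chromosome 3, Gstm3 was at 1.8, 18.8 and 17.3 FPKM in CON liver and at most 0.285 in CON eWAT. Its neighbour Gstm2 (chr3:107981702-107986453) was at 4.37, 20.6 and 16.4 in liver and 96.1, 90.97 and 87.6 in eWAT.

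**Figure D3:**
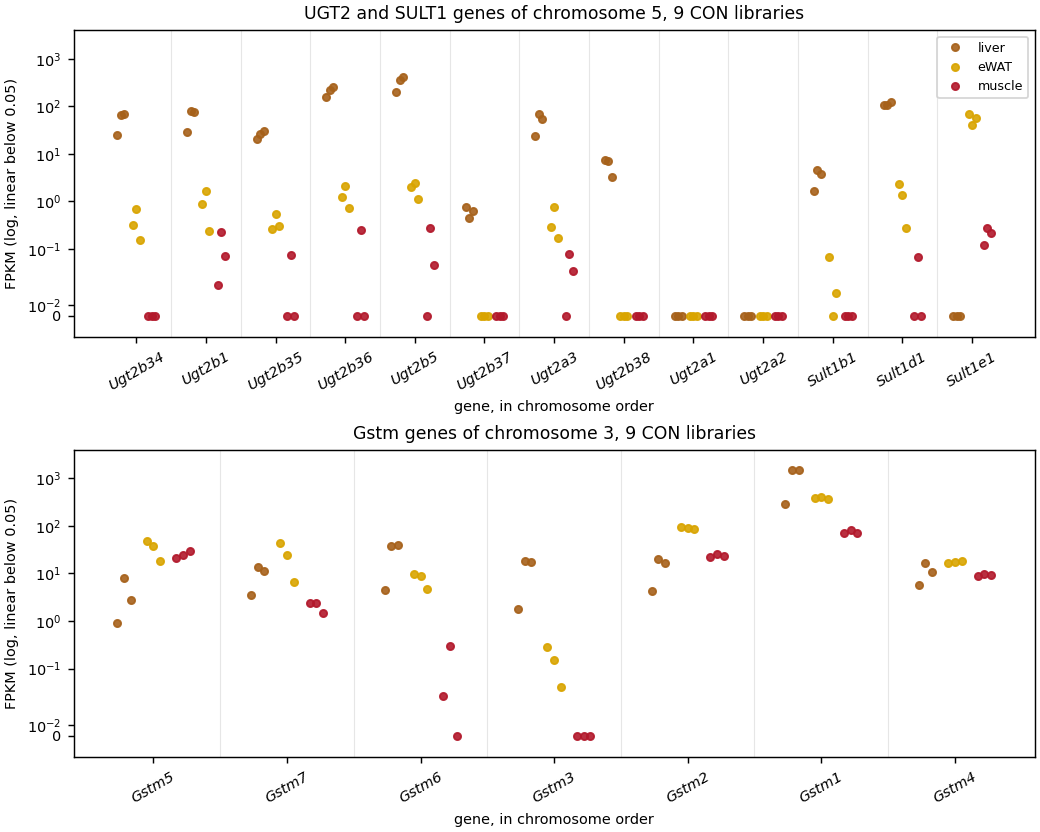
FPKM of the 13 UGT2 and SULT1 genes of chromosome 5 and the 7 Gstm genes of chromosome 3 in the 9 CON libraries, in gene order, on an axis that is logarithmic above 0.05 and linear below. The UGT2B genes above 0 are highest in liver along the whole cluster, Sult1e1 at its end is the one gene of that cluster highest in eWAT, and 4 of the 7 Gstm genes (Gstm5, Gstm7, Gstm2 and Gstm4) have their highest mean in eWAT.

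The sequences before the start sites of 5 members are shown. Ugt2b5, Ugt2b36 and Sult2a8 had the largest differences in favour of liver. Gsta3 and Mgst1 carry both motifs searched here for a sensor and a liver factor. All 5 carry the motif of the liver factor, TTGCNNAA, so they do not represent the members. Sult1d1, the next in favour of liver, has a window without this motif and is not shown. Each sequence is the 250 bases before the annotated start (RefSeq, GRCm38.p6, read 5′ to 3′ on the strand of the gene). Capitals mark matches to TTGCNNAA, a form of the site of C/EBP factors, and to TGACNNNGC, the core of the antioxidant response element bound by NRF2, on either strand. Of the 68 members, 59 had such a window.
Ugt2b5 chr5:87140341-87140590 (- strand): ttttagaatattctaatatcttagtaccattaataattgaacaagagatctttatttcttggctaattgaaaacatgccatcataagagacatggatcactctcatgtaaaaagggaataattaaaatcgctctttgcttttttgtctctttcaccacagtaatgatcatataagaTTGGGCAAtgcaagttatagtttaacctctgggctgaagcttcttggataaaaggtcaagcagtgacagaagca
Ugt2b36 chr5:87092556-87092805 (- strand): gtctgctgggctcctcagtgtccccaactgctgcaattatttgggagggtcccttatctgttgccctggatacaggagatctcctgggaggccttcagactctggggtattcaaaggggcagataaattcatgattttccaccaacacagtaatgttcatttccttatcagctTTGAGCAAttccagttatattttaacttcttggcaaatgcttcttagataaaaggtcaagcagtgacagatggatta
Sult2a8 chr7:14446588-14446837 (- strand): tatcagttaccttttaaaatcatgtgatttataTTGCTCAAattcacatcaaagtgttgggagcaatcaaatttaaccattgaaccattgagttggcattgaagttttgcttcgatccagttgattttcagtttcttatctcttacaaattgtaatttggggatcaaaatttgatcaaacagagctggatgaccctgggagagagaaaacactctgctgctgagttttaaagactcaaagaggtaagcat
Gsta3 chr1:21240335-21240584 (+ strand): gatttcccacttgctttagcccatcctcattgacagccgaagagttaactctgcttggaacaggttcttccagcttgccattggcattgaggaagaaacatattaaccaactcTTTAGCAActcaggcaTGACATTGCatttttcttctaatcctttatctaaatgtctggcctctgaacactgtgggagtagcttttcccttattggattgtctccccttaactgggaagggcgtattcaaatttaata
Mgst1 chr6:138140277-138140526 (+ strand): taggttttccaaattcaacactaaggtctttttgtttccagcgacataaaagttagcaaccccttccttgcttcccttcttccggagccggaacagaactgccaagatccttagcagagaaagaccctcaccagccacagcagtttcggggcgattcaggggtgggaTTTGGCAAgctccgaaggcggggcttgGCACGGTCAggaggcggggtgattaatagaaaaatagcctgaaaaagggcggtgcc
The match to TTGCNNAA starts at position -74 in Ugt2b5 and -77 in Ugt2b36, -217 in Sult2a8, -137 in Gsta3 and -83 in Mgst1, counted from the first base of the transcript. TGACNNNGC starts at -121 in Gsta3 and -56 in Mgst1, and no matches of the 2 motifs overlap in these windows. TTGCNNAA was found in 11 of the 59 members with a window and in 9.56% of all 32851 windows, and TGACNNNGC in 4 of 59 (Gsta3, Gstm5, Gstm7 and Mgst1) and in 10.2%. GTTAAT, part of the site of HNF1, was found in 14 of 59 members and 6.43% of all windows, GCGTG, the core of the AHR site, in 11 and 28.2%, and TATAAA in 13 and 12.4%. A member was counted if any of its windows held a match, while the background counts single windows, so the shares differ in unit. These matches describe letters and show no binding.

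In liver no member was called between HSD and CON over all 6 libraries, where the background was 0% of 10317 genes called and 5.74% at an unadjusted p under 0.05. At that p there were 4 members of 41. Ugt1a6b, Ugt1a1 and Sult2a7 were on the higher side, where 3.78% of genes had such a p, and Gstp2 on the lower, with 1.96%. Most members were on the higher side. Of the 41, 30 had a positive log2 difference, against 62.7% of all genes, and their median was 0.50, against 0.13 for all genes. The sign of this median depended on the scaling, which was 0.35 with median-ratio scaling and 0.10 with quantile normalization, beside 0.04 and 0.04 for all genes. It was -0.10, beside -0.37, when the mitochondrially encoded genes were taken out of the total. Without CON replicate 1 it was 0.10, beside 0.09.

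Among the UGT genes, 10 of the 12 tested had a positive difference, and the UGT sum was 482, 902 and 969 FPKM in CON and 1632, 1761 and 864 in HSD. The groups overlapped through HSD replicate 3, whose mitochondrial share was 44.4%, against 16.3% and 15.4% in the other HSD libraries. With mitochondrially encoded genes left out, the UGT sum was 1433 to 2156 FPKM in CON and 2195 to 2320 in HSD. The same step brought the mean SULT sum to 981 FPKM in both diets.

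Ugt1a6b, an enzyme of phenol glucuronidation, was at 0.1101, 0.614 and 0.367 FPKM in CON and 1.73, 2.95 and 1.33 in HSD liver, from 2 to 73 fragments per library. The groups did not overlap, and the log2 difference was 1.53 (SE 0.34, adjusted p = 0.764 by limma). Ugt1a1, the enzyme of bilirubin, was at 0.0589, 0.657 and 0.492 FPKM in CON and 2.11, 2.296 and 0.999 in HSD liver, also without overlap (log2 difference 1.36, SE 0.37, adjusted p = 0.764 by limma). Sult2a7 was at 0.205, 0.202 and 0.513 and 0.901, 0.9799 and 0.915 FPKM, or 2 to 13 fragments (0.85, SE 0.26). Gstt3, a theta-class transferase, was at 1.33, 2.84 and 2.87 and 5.22, 2.98 and 3.47 FPKM (0.65, SE 0.32). Groups did not overlap in 10 of 41 members, against 12.1% of all genes. In 9 of the 10 the HSD libraries were the higher ones, against 8.62%, and in Gstp2 the lower, against 3.47%. With 3 against 3 libraries, 0.1 is the smallest p of an exact permutation test, so limma was used for single genes.

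Lower values in HSD liver were found for Gstp2 and Sult5a1. Gstp2 was at 5.65, 8.42 and 5.598 FPKM in CON and 0.948, 3.46 and 2.84 in HSD liver (-1.38, SE 0.40, adjusted p = 0.764 by limma). Sult5a1 was at 8.04, 2.84 and 4.92 FPKM in CON and 0.7601, 0.894 and 5.29 in HSD liver (-1.31, SE 0.62). HSD replicate 3 was inside the CON range for Sult5a1 and the other 2 HSD libraries were well below it.

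Over the 4 liver libraries that the study listed, 2 for each diet, Sult5a1 was the only 1 of 42 members called, with a background of 0.351% of genes. It fell from 8.04 and 4.92 FPKM in CON to 0.760 and 0.894 in HSD, a log2 difference of -2.36 (SE 0.30, adjusted p = 0.0242 by limma). The call was lost with no filter, with quantile normalization, without the variance trend and by voom on recovered fragments, where the adjusted p of Sult5a1 was between 0.0605 and 0.192. At an unadjusted p under 0.05 there were 17 members of 42, against 31.7% of genes, 15 higher (24.2%) and 2 lower (7.56%). Of the 42 members 33 had a positive difference, against 63.4%. Groups of 2 did not overlap in 30, against 64.6%. The next smallest p-values belonged to genes that were higher in HSD liver and not called. They were Ugt1a6b (1.93, SE 0.32, adjusted p = 0.0574 by limma), Ugt1a1 (1.86, SE 0.33), Ugt3a1 (2.09, SE 0.46), Gsto1 (1.85, SE 0.48) and Ugt2a3 (2.07, SE 0.54). Ugt3a1, which uses UDP-N-acetylglucosamine, was at 1.57, 5.798 and 5.28 FPKM in all 3 CON and 14.95, 13.6 and 2.72 in all 3 HSD libraries. Gsto1, which reduces dehydroascorbate and arsenicals, was at 8.04, 31.8 and 19.6 and 45.4, 47.8 and 14.2. Ugt2a3, a bile acid glucuronidating enzyme, was at 24.3, 68.5 and 55.3 and 137, 176 and 40.6. For these 3 genes HSD replicate 3, which the study did not list, lay inside the CON range. In the listed libraries the mitochondrial share was 60.8% and 37.8% in CON and 16.3% and 15.4% in HSD, so that this share and the diet cannot be told apart there. With mitochondrially encoded genes left out, the median of the members was -0.13 in place of 1.00, beside -0.80 in place of 0.24 for all genes.

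**Figure D4:**
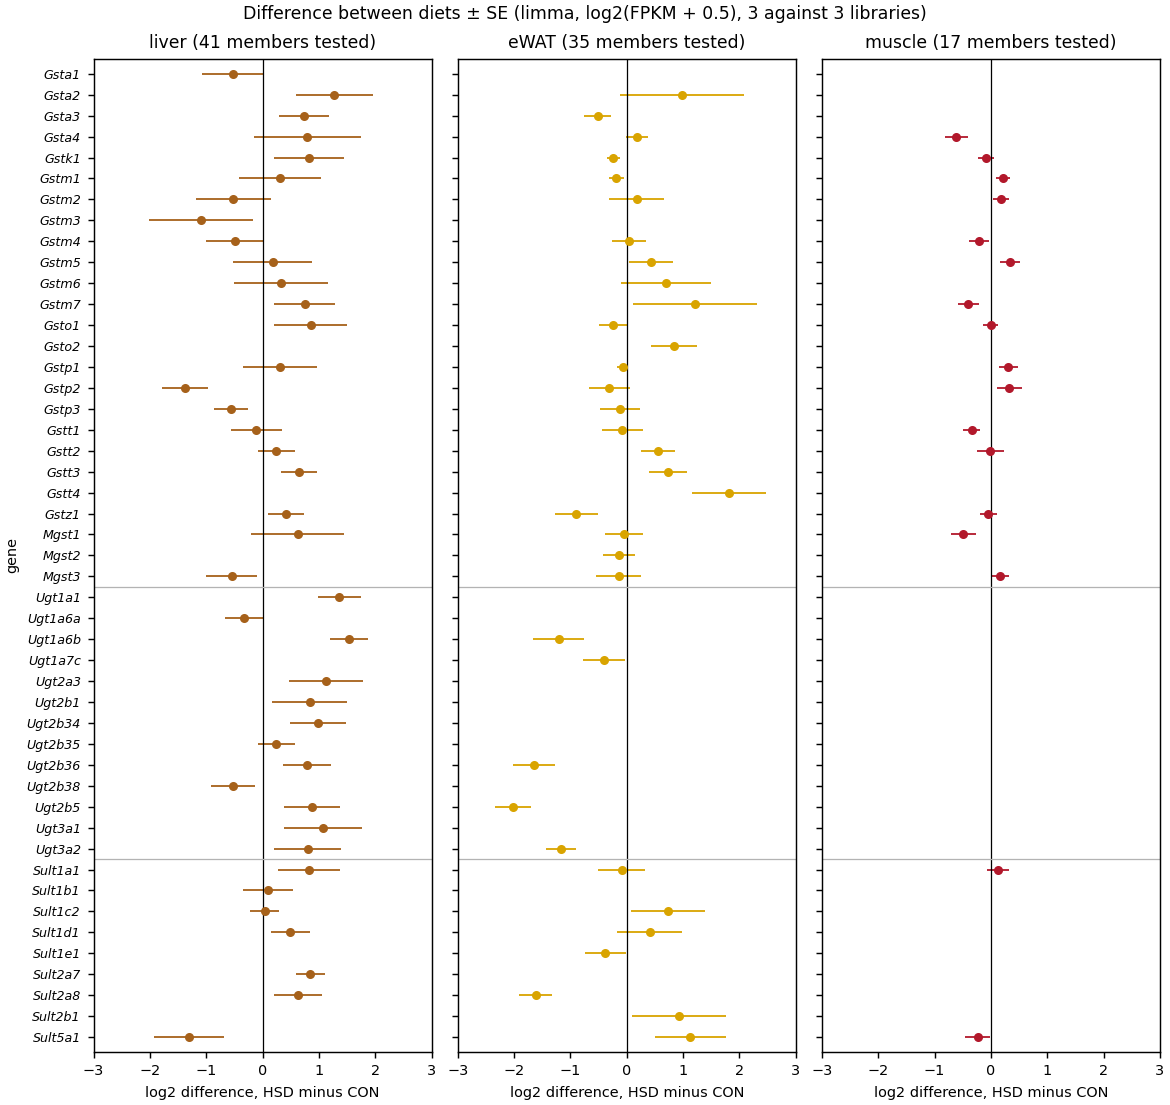
Log2 difference between HSD and CON ± SE by limma for each member with a mean of at least 0.5 FPKM, in liver (41 members), eWAT (35) and muscle (17), over all 3 against 3 libraries. UGT genes lie mostly to the right in liver and to the left in eWAT, and the muscle values lie between -0.62 and 0.34.

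In eWAT no member was called over all libraries, with a background of 0% of 13740 genes called and 16.7% at an unadjusted p under 0.05. Of the 35 members tested, 6 had such a p. Lower in HSD eWAT were Ugt2b5, Sult2a8, Ugt2b36, Ugt3a2 and Ugt1a6b, and higher was Gstt4. The single higher one stood against 9.18% of genes and the 5 lower ones against 7.55%. Of the 35, 15 had a positive difference, against 59.1% of genes, and none of the 5 UGT genes tested did. The UGT sum was 12.9, 18.3 and 11.3 FPKM in CON and 7.099, 2.35 and 4.95 in HSD eWAT, without overlap, whereas the GST sum was 1628, 1595 and 1471 and 1561, 1501 and 1633. Groups did not overlap in 11 of the 35 members, against 28.6% of all genes.

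Ugt2b5 was at 2.05, 2.49 and 1.1 FPKM in CON eWAT and 0.0789, 0 and 0.123 in HSD eWAT, or 61, 70 and 34 fragments against 2, 0 and 3. The log2 difference was -2.03 (SE 0.32, adjusted p = 0.114 by limma). Sult2a8 was at 1.14, 1.39 and 0.879 FPKM in CON and 0.0893, 0 and 0 in HSD, or 60, 69 and 48 fragments against 4, 0 and 0 (-1.62, SE 0.29, adjusted p = 0.122 by limma). For Ugt2b36 the values were 1.24, 2.15 and 0.7298 FPKM in CON and 0.178, 0 and 0.0371 in HSD (-1.65, SE 0.37). Each of the 3 genes was near 0 in all HSD libraries and present in all CON libraries, yet far below its level in liver.

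Hepatocyte transcripts moved in the same libraries. The 8 hepatocyte markers summed to 186, 285 and 96.8 FPKM in CON eWAT and 14.4, 5.88 and 8.99 in HSD eWAT, with none of the 8 at 0 in either group, and albumin alone was at 108, 167 and 53.9 and 7.85, 3.298 and 5.87. Per 1000 FPKM of these markers, Ugt2b5 was at 8.73 to 11.4 FPKM in CON eWAT and at 5.57 to 16.2 in CON liver. Ugt2b36 was at 6.67 to 7.54 in CON eWAT and 3.48 to 13.0 in CON liver, and Sult2a8 at 4.87 to 9.08 and 3.44 to 12.5. In HSD eWAT the ratio of Ugt2b5 was 0 to 13.7, from at most 3 fragments. Of all 20 members called higher in CON liver than in CON eWAT, 8 had overlapping ranges of this ratio in the 2 tissues, namely Ugt2b5, Ugt2b36, Ugt2b34, Ugt2b35, Ugt2a3, Sult2a8, Sult1d1 and Sult1b1. In 10 the CON eWAT ratios were all higher, among them Ugt2b1 by a narrow margin (2.41 to 5.94 against 1.23 to 2.41) and Gstp1 by a wide one (224 to 599 against 15 to 19.8), and in Gsta1 and Ugt2b38, both at 0 in CON eWAT, they were lower. The overlap of Ugt2b36, Ugt2b34, Ugt2b35, Ugt2a3, Sult2a8 and Sult1d1 came only from CON liver replicate 1, which had the lowest marker sum in liver. For Sult2a8 the ratio there was 12.5, while the CON liver median of 4.07 lay below the lowest CON eWAT ratio of 4.87. The ratio of Sult1d1 in HSD eWAT was 99.4 to 506. The part of hepatocyte RNA in the eWAT values of all these members was not tested further.

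Among the members with an unadjusted p under 0.05 for diet in eWAT, the ratios of Ugt3a2 and Ugt1a6b were higher in CON eWAT than in CON liver. Ugt3a2, which uses UDP-glucose and UDP-xylose, was at 1.17, 1.49 and 0.833 FPKM in CON and 0.213, 0.288 and 0.197 in HSD eWAT (-1.17, SE 0.27, adjusted p = 0.155 by limma). Per 1000 FPKM of hepatocyte markers it was at 5.23 to 8.61 in CON eWAT, above the 0.859 to 1.24 of CON liver, and at 14.8 to 49.0 in HSD eWAT. Ugt1a6b was at 3.19, 5.98 and 4.95 FPKM in CON and 3.05, 0.649 and 2.09 in HSD eWAT (-1.21, SE 0.45, adjusted p = 0.274 by limma). The groups did not overlap, though by a small margin, and its level in CON eWAT was above that of every liver library. The lowest value was that of HSD replicate 2, the library with epididymal transcripts, and without it the log2 difference of Ugt1a6b was -0.74 in place of -1.21.

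**Figure D5:**
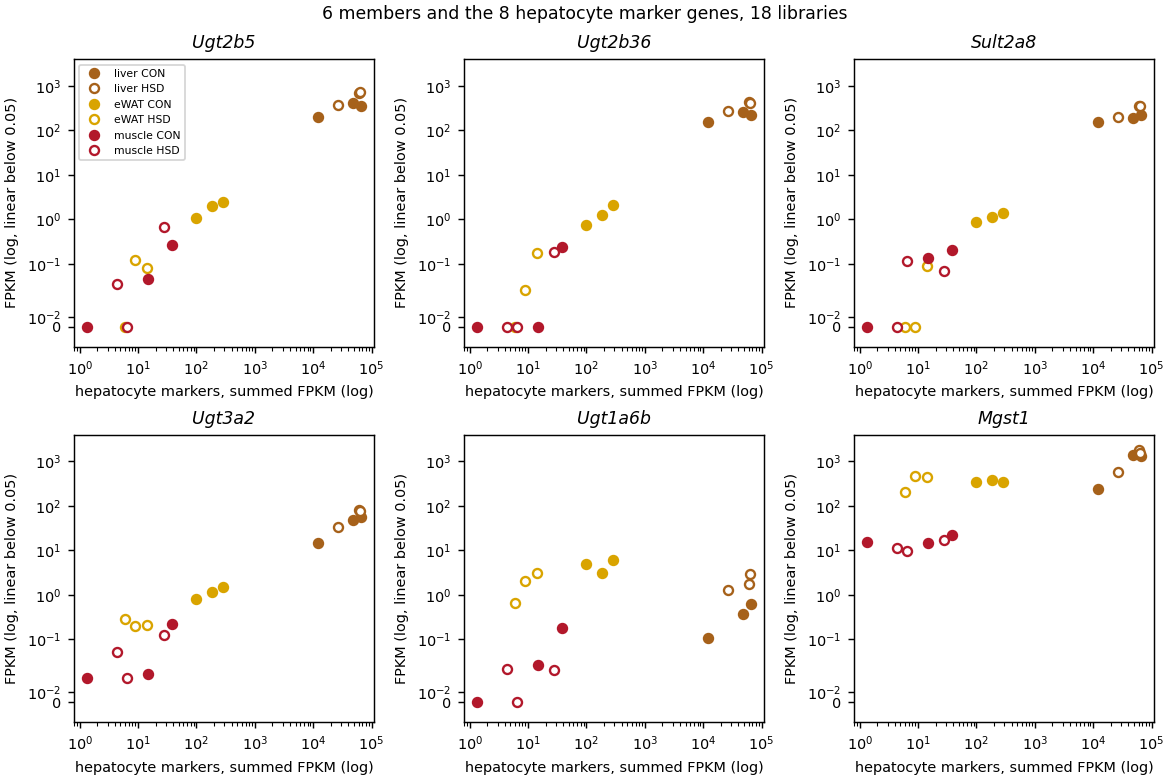
FPKM of 6 members against the summed FPKM of 8 hepatocyte markers in the 18 libraries, on log axes, the vertical one linear below 0.05. Ugt2b5, Ugt2b36 and Sult2a8 are lowest where the markers are low (muscle and HSD eWAT), intermediate in CON eWAT and highest in liver, whereas Ugt1a6b is highest in CON eWAT.

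Gstt4 was the member with the largest difference to the higher side. It was at 0.378, 0.467 and 0.243 FPKM in CON and 8.08, 1.64 and 1.005 in HSD eWAT, or 6, 7 and 4 fragments against 109, 20 and 13 (1.82, SE 0.66, adjusted p = 0.262 by limma). Gstt4 is a theta-class gene known mainly from testis, and 6 male germ cell markers summed to 4.32, 40.7 and 0.189 FPKM in CON eWAT and 531, 232 and 32.98 in HSD eWAT, with the highest value in the same library, HSD replicate 1. Among these markers 1 of 6 was at 0 in all CON eWAT libraries and none in HSD. The part of germ cell RNA in Gstt4 was not tested.

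No leading GST or SULT gene of eWAT was called. Mgst1 was at 392, 351 and 344 FPKM in CON and 437, 207 and 473 in HSD, Mgst3 at 188, 185 and 165 and 225, 85.2 and 222, and Gstm1 at 394, 405 and 369 and 328, 357 and 345. Sult1a1 was at 129, 129.8 and 133 FPKM in CON and 163, 62.1 and 181 in HSD, and Sult1e1 at 68.1, 40.2 and 56.5 and 52.6, 24.4 and 54.5. In Mgst1, Mgst3, Sult1a1 and Sult1e1, HSD replicate 2 was the lowest of the 6 libraries, while HSD replicates 1 and 3 were above every CON library for Mgst1, Mgst3 and Sult1a1. Gstm1 was lower in all HSD than in all CON libraries. HSD replicate 2 was the highest in Gstm7 (42.9, 24.6 and 6.53 FPKM in CON and 22.3, 203 and 19.8 in HSD), Gstm2 (96.1, 90.97 and 87.6 and 66.8, 233 and 70.7) and Sult5a1 (1.88, 1.96 and 2.18 and 2.82, 15.1 and 2.65). The adipocyte markers of that library summed to 7194 FPKM, against 16945 to 23426 in the other eWAT libraries. Without it, 2 of the 34 members tested were called, against 1.21% of 13245 genes and 0.989% lower, Ugt2b5 (log2 difference -1.94, adjusted p = 0.0310 by limma) and Sult2a8 (-1.58, adjusted p = 0.0351), both lower in HSD.

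Over the 5 eWAT libraries that the study listed, 3 CON and 2 HSD, no member of 36 was called either, with a background of 0% called and 19.6% at an unadjusted p under 0.05. There 8 members had such a p, 2 of them higher (against 11.9%) and 6 lower (7.75%), and groups did not overlap in 14, against 43.2%. Of the 36, 15 had a positive difference, against 59% of genes. The 6 smallest were those of Gsto2, Ugt2b5, Sult2a8, Gsta3, Ugt3a2 and Ugt2b36. Gsto2, an omega-class dehydroascorbate reductase, was at 1.09, 0.758 and 0.998 FPKM in CON and 3.46, 2.596 and 0.878 in HSD eWAT, and the log2 difference over the listed libraries was 1.28 (SE 0.21, adjusted p = 0.165 by limma). HSD replicate 3, not listed, was inside the CON range. Gsta3 was at 49.97, 57.3 and 57.2 and 38.4, 27.4 and 52.7 FPKM (-0.74, SE 0.18, adjusted p = 0.176 by limma), again with HSD replicate 3 inside the CON range.

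In muscle no member of 17 was called, against 0.323% of 10834 genes, and 2 had an unadjusted p under 0.05, against 16.3% of genes. Both were on the lower side in HSD muscle, with 12% of genes. A positive difference was found for 7 of the 17, against 39.2%, and the groups did not overlap in 2 (Gstm1 and Gstt1), against 22.3%. Gsta4, the alpha-class enzyme of the lipid peroxidation product 4-hydroxynonenal, was at 9.06, 11.1 and 11.8 FPKM in CON and 5.4, 9.67 and 5.79 in HSD muscle (-0.62, SE 0.20, adjusted p = 0.183 by limma), and the groups overlapped. Gstt1, a theta-class enzyme, was at 4.64, 4.86 and 4.56 and 2.802, 4.33 and 3.798 FPKM, without overlap (-0.34, SE 0.15, adjusted p = 0.303 by limma). The next were Mgst1 at 15.5, 22.3 and 14.8 and 9.52, 16.8 and 11.1 FPKM (-0.49, SE 0.22), Gstm7 (-0.40, SE 0.19), Gstm5 (0.34, SE 0.17) and Gstp1 (0.31, SE 0.16). Same-numbered muscle libraries deviated together, and the replicate number was tried as a block on the basis of these same data. With it 6 members had an unadjusted p under 0.05, against 21.5% of genes in that fit. These were Mgst1 (SE 0.11, adjusted p = 0.0569 by limma), Gsta4 (SE 0.15, adjusted p = 0.0716), Gstm5 (SE 0.10, adjusted p = 0.120), Gstm7 (SE 0.12, adjusted p = 0.124), Gstp1 (SE 0.10, adjusted p = 0.145) and Gstt1 (SE 0.13, adjusted p = 0.188). Each had 1 sign in all 3 pairs, which is no further support, since they were picked by the fit on these pairs. None was called. The median over the 17 members was -0.01, beside -0.06 for all genes.

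Whether the effect of the diet differed between tissues was tested by an interaction term of limma over the 18 libraries, where an adjusted p under 0.05 made a call. Between liver and eWAT, 4 of 43 members were called, against 0.788% of 13067 genes, and in all 4 the log2 difference of liver was above that of eWAT, with 0.704% of genes. Unadjusted, 14 members had a p under 0.05, against 13.7%. The 4 called were Sult2a8 (difference of the 2 log2 differences 2.24, SE 0.31, adjusted p = 0.00449 by limma), Ugt2b36 (2.44, SE 0.40, adjusted p = 0.0101), Ugt2b5 (2.91, SE 0.52, adjusted p = 0.0162) and Ugt1a6b (2.74, SE 0.51, adjusted p = 0.0218). In neither tissue was the diet difference of these 4 genes called on its own. For the first 3, eWAT fragments were few or absent in the HSD libraries, where the hepatocyte markers were also lower than in CON. The part of hepatocyte RNA in these differences was not tested. Quantile normalization ended the call of Sult2a8, Ugt2b36 and Ugt2b5, and so did taking the mitochondrially encoded genes out of the total, at differences of 1.12 to 2.46 and an adjusted p of 0.0684 to 0.128. Median-ratio scaling ended that of Ugt2b5 (2.26, adjusted p = 0.0715), as did leaving out HSD liver replicate 1 or 2 or CON eWAT replicate 2 (2.71 to 2.79, adjusted p 0.0553 to 0.0634). Ugt1a6b kept the call in both, and lost it without CON liver replicate 1, HSD liver replicate 1 or 2, or CON eWAT replicate 2, at 2.48 to 2.79 and an adjusted p of Ugt1a6b of 0.0568 to 0.0805. Between liver and muscle no member of 43 was called, against 0.0612% of genes, with 4 at an unadjusted p under 0.05, against 7.95%. Between eWAT and muscle none was called, against 0%, with 7 at an unadjusted p under 0.05, against 8%.

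Genes around the 3 reactions were followed in 7 lists of 80 genes, of which 78 are in the file. In liver none of the 66 tested and in eWAT none of the 63 tested was called for diet, nor any over the listed libraries. In muscle 1 of 57 was, against 0.323% of all genes. This was Osgin1, an NRF2 target that regulates growth, which rose from 3.499, 3.35 and 3.64 FPKM in CON to 9.83, 9.48 and 7.08 in HSD muscle (log2 difference 1.21, SE 0.14, adjusted p = 0.00964 by limma). The catalytic subunit of glutathione synthesis, Gclc, was at 4.13, 4.53 and 4.77 and 7.32, 8.04 and 7.11 FPKM (0.68, SE 0.12, adjusted p = 0.0368 by limma), below the fold required. Inmt, an amine methyltransferase, was at 6.74, 9.76 and 7.32 and 16.01, 13.7 and 14.96 (0.88, SE 0.15, adjusted p = 0.0368 by limma), also below that fold. The modifier subunit Gclm was at 3.45, 3.53 and 3.75 and 4.896, 6.84 and 5.74 FPKM (0.62, SE 0.14, adjusted p = 0.0758 by limma). The quinone reductase Nqo1 was at 12.4, 16.5 and 16.1 and 17.8, 21.97 and 19.8 (0.40, SE 0.14, adjusted p = 0.216). On the other side was Gss, which completes glutathione synthesis, at 3.32, 3.55 and 3.25 FPKM in CON and 2.096, 1.73 and 2.38 in HSD muscle (-0.60, SE 0.13, adjusted p = 0.0768 by limma). Of the 57, 11 were higher and 6 lower at an unadjusted p under 0.05, against 4.29% and 12% of all genes. In 13, among them Osgin1, Gclc, Inmt, Gclm and Nqo1, the HSD libraries were all above the CON libraries, against 6.72%, and in 8, among them Gss and Ugdh, all below, against 15.6%.

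Enzymes that make the donors of the other reactions overlapped between diets in liver. Ugdh, which makes UDP-glucuronate, was at 23.5, 24.7 and 28.3 FPKM in CON liver and 23.4, 34.2 and 21.6 in HSD liver, and Papss2, which makes PAPS, at 12.2, 13.7 and 14.3 and 12.6, 10.2 and 15.2. In liver Gclc was at 61.5, 85.8 and 111 and 139, 122 and 124 FPKM (0.61, SE 0.38), Gclm at 18.5, 44.1 and 35.6 and 57.2, 69.2 and 32.2 (0.70, SE 0.46) and Nqo1 at 0.591, 5.48 and 3.17 and 2.84, 1.92 and 2.03 (-0.07, SE 0.58). The smallest p-values of the lists in liver belonged to Nnmt, the nicotinamide methyltransferase, at 12.9, 24.3 and 26.01 FPKM in CON and 63.8, 80.99 and 48.6 in HSD (1.62, SE 0.40, adjusted p = 0.764 by limma), and to the receptors Nr1i3, which encodes CAR (1.20, SE 0.45), and Ppara (0.65, SE 0.25). In eWAT they belonged to the hepatic cytochromes Cyp3a11 (-2.03, SE 0.34) and Cyp1a2 (-1.78, SE 0.34), targets of PXR and AHR that were lower in HSD eWAT like the hepatocyte markers, and to Chac1, which degrades glutathione (0.67, SE 0.12). Papss2 was at 28.9, 27.9 and 27.2 FPKM in CON eWAT and 23.8, 8.54 and 25.6 in HSD eWAT, Ugdh at 10.4, 8.74 and 9.34 and 9.49, 5.85 and 10.1, Nqo1 at 4.66, 5.098 and 5.38 and 5.95, 15.5 and 6.99, and Gclc at 13.1, 12.7 and 10.9 and 16.9, 24.4 and 14.4. HSD eWAT replicate 2 was the lowest of its group in the first pair and the highest in the second. In the interaction of liver and eWAT, 3 of the 75 list genes tested were called, against 0.788% of all genes (0.704% on this side), each with the higher log2 difference in liver. They were Baat, which joins bile acids to amino acids (1.99, SE 0.35, adjusted p = 0.0147 by limma), the export pump Abcc2 (0.96, SE 0.21, adjusted p = 0.0439) and Nnmt (2.67, SE 0.59, adjusted p = 0.0495). Baat was at 0.8996, 0.918 and 0.588 FPKM in CON eWAT and 0.0755, 0.0419 and 0 in HSD eWAT, and Nnmt at 94.8, 109 and 106 and 58.03, 23.9 and 87.2.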

How the data were processed

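The 18 libraries were made from rRNA-depleted RNA with a stranded kit and sequenced in pairs. FPKM per gene were deposited. For FPKM the paper names cuffdiff and an Ensembl annotation (release not given in the sources used here), after cutadapt trimming and alignment by hisat2 against mm10. The submitters' processing notes also list HTSeq 0.9.1 and mm9, and which tool gave the deposited values was not settled. Gene coordinates are of mm10, from GENCODE M21 by gene identifier. FPKM steps gave whole fragments (within 0.02) with exon-union lengths of that annotation for 18343 of the 18822 genes above 0, and at another length for the other 479; depth is their sum.

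Tests used limma 3.58.1 (R 4.3.3) on log2(FPKM + 0.5), which understates the change of low genes, with eBayes(trend = TRUE), for genes with a mean of at least 0.5 FPKM over the fitted libraries. Benjamini-Hochberg adjustment ran over all genes tested, and p-values are 2-sided. Diet was fitted within each tissue. DESeq2, which the authors used, was not run. Alternatives were pseudocounts of 0.1 and 1, no filter or a mean of at least 1 FPKM, median-ratio scaling, quantile normalization, mitochondrially encoded genes left out, eBayes without trend, each library left out, the replicate number or mouse as a block, all tissues in 1 fit, arrayWeights and voom on recovered fragments.

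The members and lists were chosen with earlier results of these data known. Named are, per tissue, the 3 highest members of each superfamily, members called in a diet comparison or interaction, the 6 smallest p-values of each diet comparison, the 4 largest differences in each direction between CON tissues, and list genes that were called or had the 3 smallest p-values, with Gclc, Gclm, Nqo1, Ugdh and Papss2 given always. Gsta1, Gstm3, Gstm4, Gstm6, Ugt2b34, Ugt2b35, Ugt2b38, Sult1b1 and Gss were named after their values were seen. Shared sequence is the share of a gene's 100-base stretches, over its GENCODE M21 transcripts, found in transcripts of other genes.

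CON and HSD mice are different animals, so only the replicate number could pair them. Deviations from the group means correlated across genes in muscle for numbers 1 to 3 at 0.383, 0.177 and 0.184, in liver at -0.473, 0.395 and -0.213 and in eWAT at -0.197, 0.0608 and 0.414. The numbers were therefore taken to pair muscle only, where the fit without the block stayed the main one and the blocked values are given beside it. This choice was made from the same data that were then tested, and the labels name no batch. The eWAT libraries with these numbers came from the same mice and did not correlate in all pairs. The smaller SEs of the blocked fit are therefore no independent evidence.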

Additional observations from a re-analysis of the deposited data

Results flagged for a closer look

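The effect of the diet differed between liver and eWAT for 4 of 43 members by the interaction test of limma over 18 libraries. The background was 0.788% of all genes. Each of the 4 calls was lost under some of the alternatives, and in neither tissue was the diet difference called on its own. The difference, liver minus eWAT, was 2.24 for Sult2a8, 2.44 for Ugt2b36, 2.91 for Ugt2b5 and 2.74 for Ugt1a6b on the log2 scale. The log2 difference between HSD and CON was 0.62 in liver and -1.62 in eWAT for Sult2a8, 0.79 and -1.65 for Ugt2b36, 0.88 and -2.03 for Ugt2b5, and 1.53 and -1.21 for Ugt1a6b.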

How the results depend on the processing

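Of the counts of members called, 170 alternatives left the count within 1.5 times, 9 gave fewer and 18 more. No alternative turned the log2 difference of a member named for a call, a smallest p or a largest difference between CON tissues. The other named members were not followed in this way. Among them, the signs of Mgst1 and Mgst3 for diet in eWAT rested on HSD replicate 2. Medians and sums could turn. In liver, leaving out mitochondrially encoded genes turned the median of the members. It also moved the log2 ratio of the mean GST sums, HSD over CON, from 0.21 to -0.21. The share of all genes called in the same fit stands in brackets. In liver, 0 members (0%) were called over all libraries and 11 with arrayWeights (8.98%). In eWAT the count was 4 with all tissues in 1 fit (1.23%) and 3 with arrayWeights (1.6%), and 0 to 2 when a library was left out (2 without HSD replicate 2, 1.21%). Over the listed liver libraries, 1 member was called (0.351%). This became 4 with a pseudocount of 1 (2.39%) or a mean of at least 1 FPKM (3.79%), 0 with no filter, quantile normalization, eBayes without trend or voom, 2 with mitochondrially encoded genes out of the total (4.67%), 17 with all tissues in 1 fit (13.8%) and 10 with arrayWeights (7.59%). It was 2 to 29 with a library left out (10 without CON replicate 1, 10.3%; 29 without CON replicate 3, 31.6%; 4 without HSD replicate 1, 1.67%; 2 without HSD replicate 2, 0.34%), a fit in which the lone library is assumed to vary like the others. Over the listed eWAT libraries the count was 6 with all tissues in 1 fit (4.33%) and 0 to 15 with a library left out (15 without HSD replicate 1, 20%). For the interaction of liver and eWAT, 4 (0.788%) became 1 with quantile normalization (0.406%) and 1 without mitochondrially encoded genes (0.14%), and 2 to 11 with a library left out. It was 2 without liver HSD replicate 1 (0.297%) or 2 (0.335%) or eWAT CON replicate 2 (0.285%), 7 without eWAT HSD replicate 3 (2.36%) and 11 without liver HSD replicate 3 (4.86%). For eWAT and muscle it was 0 to 2 (2 without eWAT HSD replicate 3, 1.11%). The causes were not tested. With the replicate number as a block, the members at an unadjusted p under 0.05 in muscle went from 2 to 6. The share of all genes at that p went from 16.3% to 21.5%. With this block 0 members were called for diet in each tissue and over the listed eWAT libraries. The listed liver libraries share 1 number only and could not be fitted. With mouse as a random block, 25 (55.0%) in place of 24 (54.9%) members were called between CON eWAT and CON muscle, and the other counts were the same. Low fragment counts limit Ugt1a1, Ugt1a6b and Sult2a7 in liver and Ugt2b5, Ugt2b36, Sult2a8 and Gstt4 in eWAT.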
